A study of Sus scrofa domesticus with 4 samples.

Results

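The genes described here are B2M, CD74 and the swine leukocyte antigen (SLA) genes SLA-1, SLA-DRA, SLA-DQA1, SLA-DQB1, SLA-DMA and SLA-DMB, measured in pig anterior pituitary cells with and without adiponectin. A probe was taken as a member when its RefSeq accession belonged to one of these 8 genes in the pig assembly Sscrofa11.1, and every such probe was kept. This gave 26 of the 43603 probes on the array, for 7 of the 8 genes, out of 2459 genes that could be given a symbol. No probe matched SLA-1. B2M and CD74 had 2 probes each, SLA-DRA and SLA-DQA1 7 each, SLA-DQB1 4, and SLA-DMA and SLA-DMB 2 each.

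The cells came from mature Large White x Polish Landrace gilts aged 7 to 8 months, with pituitaries taken on days 10 to 12 of the oestrous cycle per the protocol, although a label calls these days a period of pregnancy. Trypsin-dispersed cells of all cell types of the lobe were left to attach for 48 h and then kept for 24 h in serum-free medium with bacitracin, either alone (control) or with 10 µg/ml recombinant human adiponectin, an adipose tissue hormone. Each of 4 two-colour arrays carried treated and control RNA together, and by the labels of the channels the dyes were swapped: treated RNA was in Cy5, the red dye, on arrays 1 and 3, and in Cy3, the green dye, on arrays 2 and 4. No label ties an array to a gilt, so p-values measure the spread between these 4 arrays.

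The major histocompatibility complex, called SLA in pigs, encodes cell-surface proteins that show peptides to T cells. Class I molecules pair a heavy chain (SLA-1 is one) with beta-2 microglobulin, the product of B2M, and are carried by nearly all nucleated cells. Class II molecules pair an alpha and a beta chain (SLA-DRA, SLA-DQA1, SLA-DQB1) and belong mainly to dendritic cells, macrophages and B cells. CD74, the invariant chain, fills the class II groove until the DM heterodimer (SLA-DMA, SLA-DMB) helps a peptide take its place. In the RefSeq gene order the SLA members lie on 1 chromosome, with the class I heavy chain genes first, then SLA-DRA, SLA-DQA1 and SLA-DQB1, and SLA-DMB and SLA-DMA after the antigen processing genes TAP2, PSMB8, TAP1 and PSMB9. B2M and CD74 lie on other chromosomes.

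Ratios are given on the log2 scale as treated over control. A value on a single array still holds the bias of its dye, and the fitted ratio removes it with a dye term in limma. The treated over control ratios of arrays with opposite dye assignment had a mean correlation of -0.46 across all probes (4 pairs of arrays), against 0.41 for the same assignment (2 pairs), while red over green ratios correlated at 0.26 to 0.57. The direction of every ratio rests on the channel labels, which the deposited ratios follow. The labelling protocol instead words control RNA as Cy3 and treated RNA as Cy5 throughout. By that wording the shared red over green ratio would be the treatment ratio, and dye and treatment cannot be told apart. A channel had 25089 to 29734 probes well above background. The test took 25912 probes, those with values on 3 or 4 arrays that stood well above background, in treated or in control RNA, on 3 arrays or more.

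No difference between adiponectin-treated and control cells passed the test for any MHC gene. Of the 26 member probes 20 were tested, and 0 of 20 had a Benjamini-Hochberg adjusted p under 0.05 in limma's moderated test, as did 0 of all 25912 tested probes (0%). At an unadjusted p under 0.05 there was 1 of 20 member probes, higher in treated cells, against 717 of all tested probes (2.77%), 270 of them higher (1.04%). With the probes of a gene averaged, 0 of 7 member genes passed the adjusted threshold and 0 of 7 had an unadjusted p under 0.05, against 0% and 2.77% of the 23682 genes and unnamed probes in that fit and 1.89% of the 1956 named genes. The fitted probe ratios ran from -0.07 to 0.15 with 14 above and 6 below 0, a median of 0.01, and the median over all tested probes was 0.0012. A change of 1.2-fold, up or down, lay outside the 95% interval of 18 of the 20 (90%, against 78.1% of all tested probes), and one of 1.5-fold outside that of all 20. Ratios of dim probes lie nearer 0 because an offset of 50 was added to the intensities, so these intervals do not bound the fold change of a dim transcript. This limit bears on class II widely. Control signals of its tested probes ran from 6.04 to 268, and each class II gene had a tested probe under 50 on some array.

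**Figure D1:**
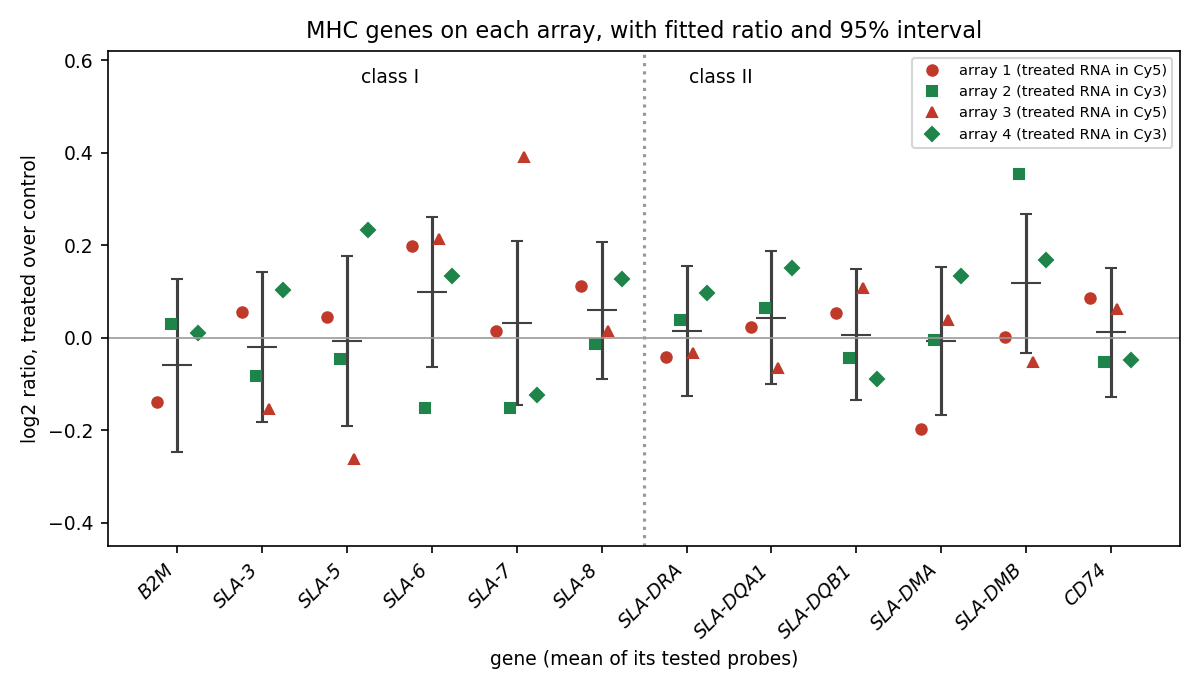
Log2 ratio of treated over control cells (vertical axis) on each of the 4 arrays for the measured MHC genes (horizontal axis, mean of the tested probes), with other class I heavy chain genes shown beside B2M; red symbols are arrays with treated RNA in Cy5, green symbols those with treated RNA in Cy3, and the black bars give the fitted ratio with its 95% interval. Every interval crosses 0, and B2M has no value on array 3.

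Class I was represented among the members by B2M alone. Its tested probe, A_72_P709927, was bright, with scanner signals of 33351 to 49223 in control and 30975 to 52647 in treated RNA. Its ratio was -0.14 on array 1, 0.03 on array 2 and 0.0088 on array 4, with the spot of array 3 left out because the scanner software flagged its local background as uneven. The low value of array 1 lay apart from the other two, which were near 0. The fitted B2M ratio was -0.06 (95% interval -0.25 to 0.13, 0.959-fold, n = 3 arrays, adjusted p = 0.9997 in limma). Here 1 array alone carries the Cy5 orientation.

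The other B2M probe, A_72_P441589, was well above background in both channels on 4 of 4 arrays, but its background was flagged as uneven on 3, and it was not tested. With all flagged spots kept, its ratios were 0.05, 0.22, 0.15 and -0.28 on arrays 1 to 4 and those of A_72_P709927 were -0.18, 0.23, -0.06 and 0.07. Neither probe then kept 1 sign over the arrays. The background correction and loess were also fitted with the flagged spots here, so the unflagged spots of A_72_P709927 changed too. The fitted B2M ratio was 0.03 (-0.13 to 0.19, n = 4), the opposite sign to the value without the flagged spots. Median centring in place of loess also turned it, to 0.07. No direction can therefore be given for B2M. The annotation holds 2 entries named B2M, and which of them the probes read was not tested.

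SLA-1, a classical class I heavy chain gene, had no value. In the annotation SLA-1 is also a synonym of SLA-3 and SLA-5, which together had 9 probes. The heavy chain genes SLA-3, SLA-5, SLA-6, SLA-7 and SLA-8 were therefore measured beside B2M, a choice made after it was seen that SLA-1 had no probe. They had 15 probes, of which 13 were tested. Class I heavy chain genes are close paralogs, and cross-hybridisation between them was not tested.

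SLA-3 is a classical heavy chain gene that, like SLA-1, presents peptides to cytotoxic T cells. Its ratios were 0.05, -0.08, -0.16 and 0.10 on arrays 1 to 4, and the fitted value was -0.02 (-0.18 to 0.14). SLA-5 had ratios of 0.04, -0.05, -0.26 and 0.23 and a fitted value of -0.0080 (-0.19 to 0.18). Both genes were above 0 on arrays 1 and 4 and below it on arrays 2 and 3, so neither dye orientation agreed within itself. Among the 5 tested probes of SLA-3, A_72_P625308 ran at -0.25, 0.12, -0.23 and 0.36, and A_72_P649741, without a value on array 3, at 0.22, -0.28 and -0.20 on arrays 1, 2 and 4. Their signs followed the dye in opposite directions, with dye terms (red over green) of -0.24 and 0.23 and fitted treatment ratios of -0.00041 and -0.0083.

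The other heavy chain genes included SLA-6 and SLA-7, nonclassical genes of the class I region, with 1 probe each. SLA-6 was at 0.20, -0.15, 0.21 and 0.13, with a fitted ratio of 0.10 (-0.06 to 0.26). SLA-7 was at 0.01, -0.15, 0.39 and -0.12, with a fitted ratio of 0.03 (-0.15 to 0.21). SLA-8, also nonclassical, had 4 probes, all tested and all above 0 in the fit (0.03 to 0.09). Its gene ratios were 0.11, -0.01, 0.01 and 0.13, with a fitted value of 0.06 (-0.09 to 0.21). None of the 13 heavy chain probes had an unadjusted p under 0.05 in limma, against 2.77% of all tested probes.

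Among the class II chains, SLA-DRA encodes the alpha chain of the DR molecule. The mean of its 6 tested probes was -0.04, 0.04, -0.03 and 0.10 on arrays 1 to 4. The arrays with treated RNA in Cy5 were below 0 and those with treated RNA in Cy3 above it. The fitted ratio was 0.01 (-0.13 to 0.16, 1.01-fold, n = 4), with a dye term of -0.05.

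The SLA-DRA probes did not move alike from array to array. A_72_P640825, with control signals of 154 to 247, gave 0.06, -0.07, -0.05 and 0.12. A_72_P176171 gave -0.22, 0.23, -0.08 and 0.30, a swing that followed the dye, with a dye term of -0.21 and a fitted treatment ratio of 0.06 (-0.09 to 0.21). A_72_P652871 swung the same way at -0.06, 0.11, -0.16 and 0.15. In the other direction, A_72_P610249 was at 0.12 and 0.17 on arrays 1 and 3 and -0.05 on array 4, with array 2 lost to uneven background. A_72_P571544 was below 0 on all 4 arrays, at -0.12, -0.03, -0.09 and -0.04, with a fitted ratio of -0.07 (-0.21 to 0.07, unadjusted p = 0.287 in limma). A_72_P683574 stayed between -0.05 and 0.11. That probe, A_72_P571544, A_72_P610249 and A_72_P652871 were dim, with control signals between 10.5 and 74.0. Each was well above background on 3 of 4 arrays in treated and in control RNA. A_72_P176171 was also dim, with control signals of 23.9 to 71.2, but well above background on 4 of 4 arrays in both. The probe that was not tested, A_72_P561324, was not well above background on any array.

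SLA-DQA1 encodes the alpha chain of the DQ molecule. Its gene ratios were 0.02, 0.06, -0.07 and 0.15, and the fitted value was 0.04 (-0.10 to 0.19, 1.03-fold, n = 4). The value of array 3 was the only one below 0. Its probe A_72_P712598 was the one with an unadjusted p under 0.05 among the members (unadjusted p = 0.0466, adjusted p = 0.9999, limma). The scanner signals of that probe lay at 50.8 to 65.6 in control and 51.5 to 80.8 in treated RNA. Its ratios were 0.13, 0.16, 0.09 and 0.20, above 0 on all 4 arrays, and the fitted value was 0.15 (0.0028 to 0.29, 1.11-fold). It is singled out here for its p and thus tends to show a value away from 0. Without array 1 its ratio was 0.14, without array 2 0.16, without array 3 0.16 and without array 4 0.14. Each of these fits leaves 1 array alone in 1 dye orientation, so no p is given for them. This probe had no flagged spot, but with those of other probes kept its ratio was 0.10 (unadjusted p = 0.129, limma). With an offset of 0 in place of 50 it was 0.23 (unadjusted p = 0.0220). With treated RNA read as Cy5 throughout it was -0.04.

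The other SLA-DQA1 probes did not show that pattern. A_72_P721473 was at -0.24, 0.30, -0.17 and 0.35, with a dye term of -0.26 and a fitted treatment ratio of 0.06 (-0.08 to 0.20). A_72_P746609 was at -0.13, 0.16, -0.27 and 0.27, with a dye term of -0.21 and a fitted ratio of 0.0063. In both, treated RNA read lower in Cy5 and higher in Cy3 on every array. A_72_P750437 lay between -0.03 and 0.02 on the 4 arrays, with a fitted ratio of -0.0077 (-0.15 to 0.13). A_72_P244477 and A_72_P720353 had fitted ratios of 0.04 and 0.01, each with 1 array or more on either side of 0. A_72_P763148 was well above background on 2 of 4 arrays in each RNA and was not tested.

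SLA-DQB1 encodes the beta chain of the DQ molecule. Its gene ratios were 0.05, -0.04, 0.11 and -0.09, above 0 with treated RNA in Cy5 and below 0 with treated RNA in Cy3. The fitted ratio was 0.0065 (-0.13 to 0.15, 1.00-fold, n = 4). Of its probes, A_72_P672583 was at 0.24, -0.20, 0.16 and -0.11, with a dye term of 0.18 and a fitted ratio of 0.02. A_72_P585101 had a fitted ratio of 0.02 and A_72_P039061 one of -0.02. The remaining probe, A_72_P631166, was well above background on 1 array in treated and 2 in control RNA and was not tested. The chains SLA-DQA1 and SLA-DQB1, which pair in 1 protein, thus lay on opposite sides of 0 on arrays 2, 3 and 4.

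**Figure D2:**
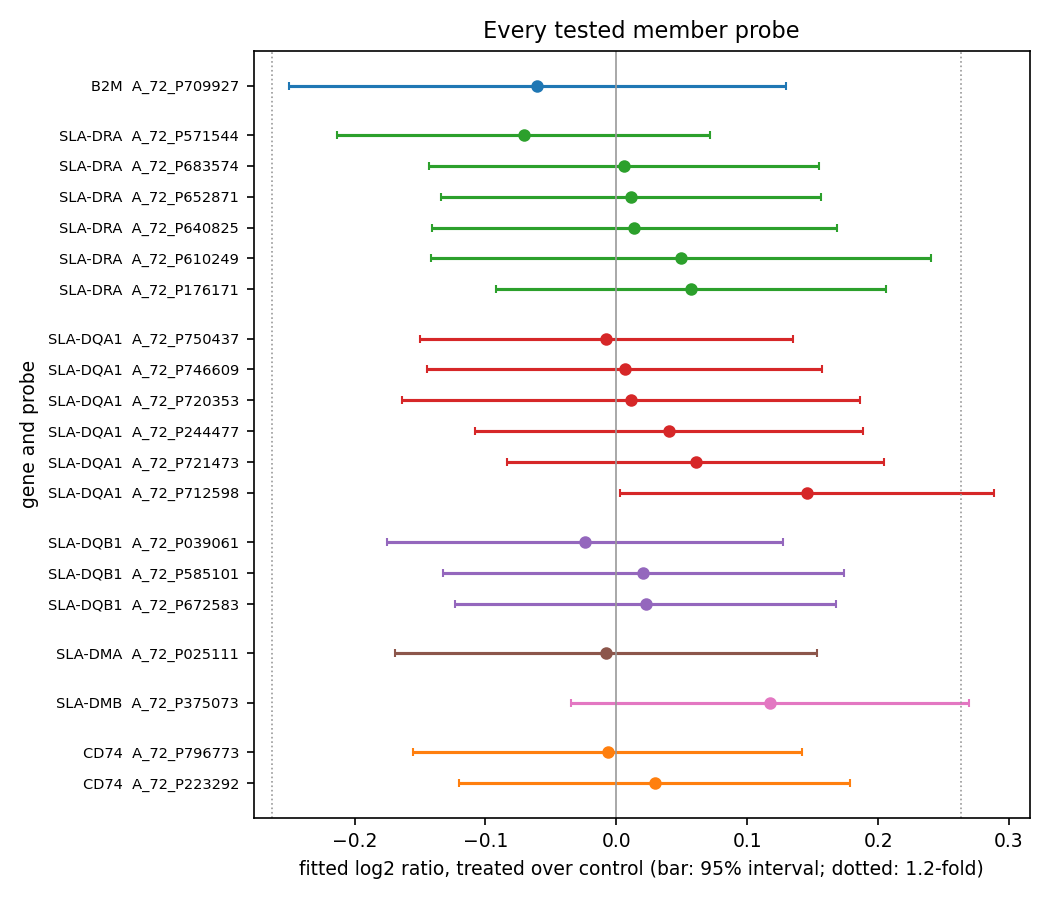
Fitted log2 ratio of treated over control cells (horizontal axis) with its 95% interval for each of the 20 tested member probes, grouped and coloured by gene (vertical axis); dotted lines mark a 1.2-fold change in either direction. The interval of 1 SLA-DQA1 probe, 0.0028 to 0.29, lies above 0, and the other 19 cross it.

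SLA-DMA and SLA-DMB encode the chains of the DM heterodimer, which loads peptides onto class II molecules in endosomes. Each had 1 tested probe. SLA-DMA was at -0.20, -0.0044, 0.04 and 0.13 on arrays 1 to 4, and the low value was that of array 1. Its fitted ratio was -0.0081 (-0.17 to 0.15, 0.994-fold, n = 4). The other SLA-DMA probe, A_72_P427349, was well above background on 1 array in each RNA.

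SLA-DMB had the highest gene ratio of the members by the channel labels. Its tested probe, A_72_P375073, was at 0.0017, 0.35, -0.05 and 0.17, and the 2 arrays with treated RNA in Cy3 were the high ones. The fitted value was 0.12 (-0.03 to 0.27, 1.09-fold, n = 4, unadjusted p = 0.110, adjusted p = 0.9997, limma), with a dye term of -0.14. This probe was dim, with scanner signals of 9.62 to 39.5 in control and 16.3 to 43.5 in treated RNA, well above background on 4 of 4 arrays in treated RNA and on 2 in control RNA. The other SLA-DMB probe, A_72_P629649, was not well above background on any array and had ratios of -0.12, -0.22, -0.13 and -0.01. With both probes averaged, as without a filter on dim probes, the SLA-DMB ratio was -0.0024. It was 0.03 with the flagged spots of other probes kept, as this gene had none. The ratio was 0.24 with an offset of 0 (unadjusted p = 0.0400, limma) and 0.38 with the scanner's own log ratio (unadjusted p = 0.0734, limma). Without array 2 it was 0.07. With no background subtraction it was 0.12. Its size thus differed between these settings, and the reason was not tested.

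CD74 had 2 tested probes, and their mean was 0.09, -0.05, 0.06 and -0.05 on arrays 1 to 4. Its values lay above 0 with treated RNA in Cy5 and below 0 with treated RNA in Cy3, the opposite of SLA-DRA. The fitted ratio was 0.01 (-0.13 to 0.15, 1.01-fold, n = 4), with a dye term of 0.06. The probe A_72_P796773, with scanner signals of 176 to 268 in control and 190 to 236 in treated RNA, was at 0.04, -0.15, 0.08 and -0.0019. The probe A_72_P223292 was at 0.13, 0.04, 0.04 and -0.09, and it was well above background on 3 arrays in treated and on 1 in control RNA.

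Class I was set against class II by averaging the genes of each class on every array, with equal weight for both dye orientations. As the genes were chosen with earlier results known, these means carry no test. The 6 class II genes averaged -0.01, 0.06, 0.0086 and 0.07 on arrays 1 to 4, a mean of 0.03 ± 0.04 (SD, n = 4). The highest of them, SLA-DMB at 0.12, and the CD74 probe A_72_P223292 passed the filter on dim probes through treated RNA only. Without that filter the class II mean was 0.0092. A strict filter, well above background in both RNAs on all arrays, left SLA-DMB out and gave 0.013. The chains SLA-DRA, SLA-DQA1 and SLA-DQB1 averaged 0.02 ± 0.02 (SD, n = 4), with the mean of all 4 arrays between 0.0023 and 0.05. As single genes they ran from -0.09 (SLA-DQB1, array 4) to 0.15 (SLA-DQA1, array 4). The dye term was 0.07 for SLA-DQB1 against -0.06 for SLA-DQA1 and -0.05 for SLA-DRA. The SLA-DMA and SLA-DMB genes averaged 0.05 ± 0.13 (SD, n = 4), with -0.10 and -0.0085 on the Cy5 arrays and 0.17 and 0.15 on the Cy3 arrays. SLA-DMA alone did not separate in this way, at -0.20 and 0.04 against -0.0044 and 0.13. Class I, which is B2M, was at -0.06 ± 0.09 (SD, n = 3), while the plain mean of its 3 arrays was -0.03. Each SD of the class comparison is taken over the values of single arrays. It thus still holds the dye bias that the mean balances.

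Subtracting class II from B2M on the same array gave -0.13, -0.03 and -0.06 on arrays 1, 2 and 4, a mean of -0.09 ± 0.05 (SD, n = 3). B2M was the lower on each of these 3 arrays. That difference did not hold when class I was measured otherwise. The 5 other heavy chain genes averaged 0.08, -0.09, 0.04 and 0.09, a mean of 0.03 ± 0.08 (SD, n = 4), and their difference from class II was 0.10, -0.15, 0.03 and 0.03, a mean of 0.0013 ± 0.10. With B2M and these 5 genes together the difference was -0.0066 ± 0.08 (SD, n = 4), and with B2M, SLA-3 and SLA-5 it was -0.07 ± 0.12. With the flagged spots kept, and the background correction and loess fitted with them, B2M minus class II was 0.01. The sign of the class difference thus depended on which class I genes were used and on the processing.

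**Figure D3:**
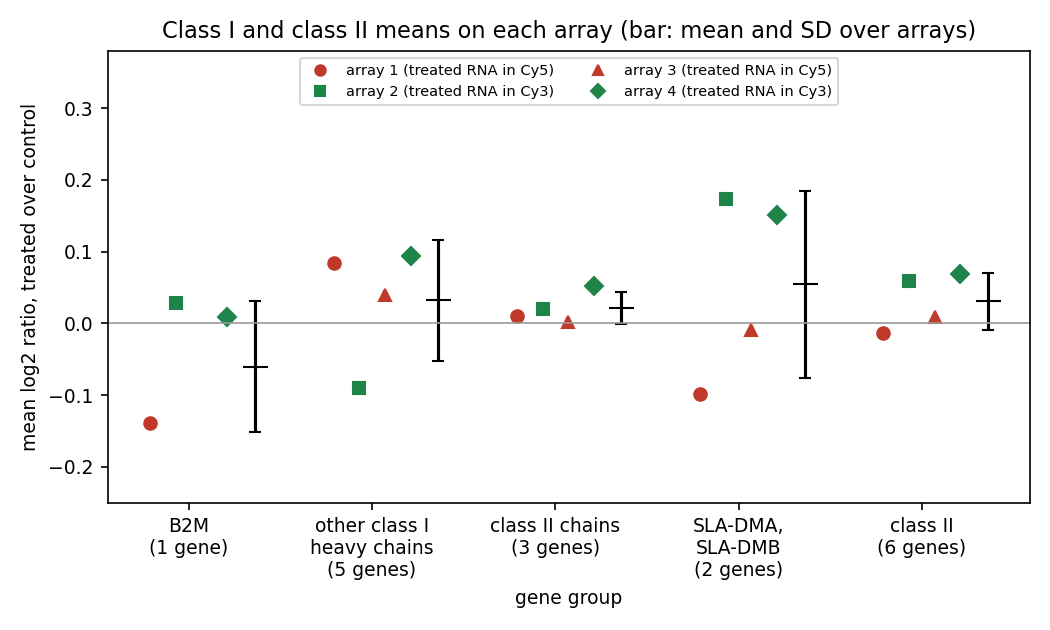
Mean log2 ratio of treated over control cells (vertical axis) on each array for 5 groups of MHC genes (horizontal axis); red symbols are arrays with treated RNA in Cy5, green symbols those with treated RNA in Cy3, and the black bars give the mean and SD over arrays. The mean of the 3 class II chains lies between 0.0023 and 0.05 on every array, although the single genes spread from -0.09 to 0.15. The mean of SLA-DMA and SLA-DMB separates by dye orientation, while SLA-DMA alone does not. Means weigh both dye orientations equally.

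By the channel labels, the dye term was larger in size than the treatment term for 16 of the 20 (80%), against 72.0% of all tested probes. With treated RNA read as Cy5 throughout, this red over green term is itself the treatment ratio, and the member probes then run from -0.26 to 0.18, with 7 of 20 above 0. At an unadjusted p under 0.05 the dye term stood out for 4 of the 20 member probes, A_72_P176171 of SLA-DRA, A_72_P721473 and A_72_P746609 of SLA-DQA1 and A_72_P672583 of SLA-DQB1, against 25.8% of all tested probes. After adjustment over all tested probes 1 of the 20 remained (A_72_P721473), against 6.21% of all. Probes of 1 gene differed in the sign of this term. For SLA-DRA it ran from -0.21 to 0.09, for SLA-DQA1 from -0.26 to 0.08 and for SLA-DQB1 from -0.0055 to 0.18. Of the 18 member probes with values on 4 arrays, 2 kept 1 sign of the treated over control ratio on all of them, against 5.94% of all such probes. These are the SLA-DQA1 probe above 0 and the SLA-DRA probe below 0 named before, so they do not share a direction.

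**Figure D4:**
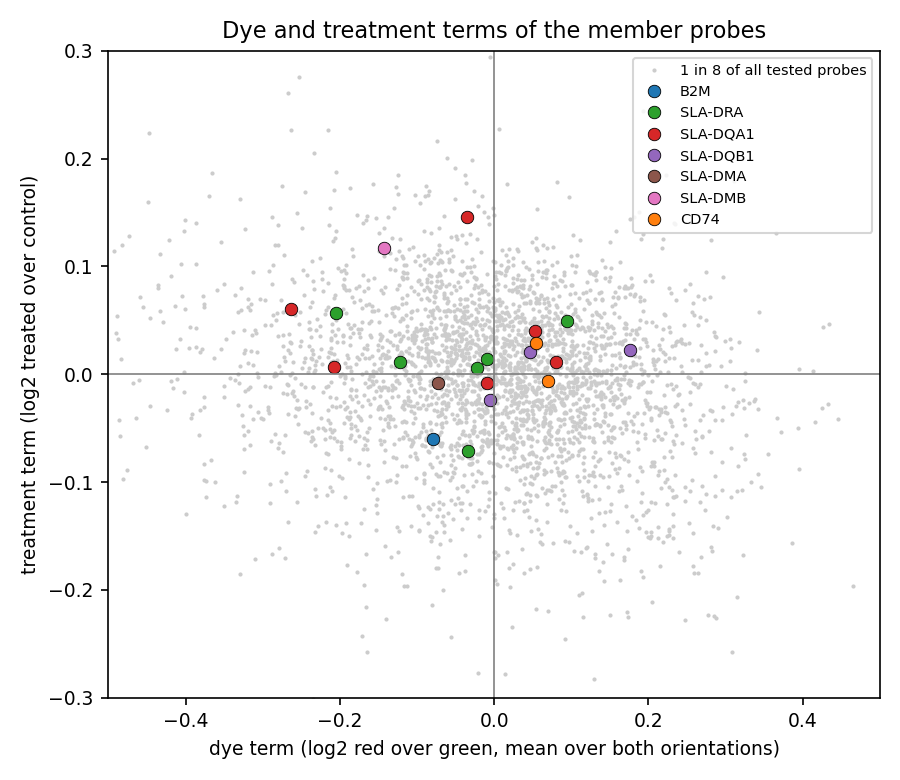
Treatment term (vertical axis, log2 treated over control) against dye term (horizontal axis, log2 red over green) for the 20 tested member probes, coloured by gene, over a grey sample of all tested probes; grey points beyond the axes are not drawn. Member probes spread along the dye axis from -0.26 to 0.18 and along the treatment axis from -0.07 to 0.15.

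Other genes of antigen presentation did not pass the test either. Of a list of 56 such genes, 28 had probes and all 28 were tested, with 10 ratios above and 18 below 0, a median of -0.02, against 0.0061 over all tested named genes. None had an unadjusted p under 0.05 in limma, against 1.89% of named genes, and none an adjusted p under it. SLA-DRB1, the partner chain of SLA-DRA, had a fitted ratio of -0.02 (-0.17 to 0.13), and SLA-DOB, a chain of the DO molecule that restrains DM, one of -0.06 (-0.20 to 0.08). TAP1, a subunit of the transporter that carries peptides to class I molecules, was at 0.02 (-0.12 to 0.16).

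The list of immunoproteasome genes concerns the making of peptides for class I, and not all of its genes encode catalytic subunits. All 5 on the list had fitted ratios below 0, between -0.09 and -0.02 with a median of -0.07. Of all 1956 tested named genes, 907 were below 0 and 1049 above. The dye term had an unadjusted p under 0.05 in limma for 3 of the 5. PSMB8, a catalytic subunit, was at 0.16, -0.33, 0.12 and -0.31 on arrays 1 to 4, so its sign on single arrays followed the dye, and the fitted ratio was -0.09 (-0.23 to 0.05). Genes for processing in the class II pathway had 4 measured members, with all ratios above 0 and a median of 0.12. CTSB, the lysosomal protease cathepsin B, was at 0.03, 0.19, -0.14 and 0.40, with a fitted ratio of 0.12 (-0.04 to 0.28) and 4 of 4 probes above 0. CTSH was at 0.11, -0.0015, 0.05 and 0.33 and CTSD at 0.28, -0.14, 0.12 and 0.19, with fitted ratios of 0.12 (-0.05 to 0.29) and 0.11 (-0.06 to 0.29). Without array 4 the ratios were 0.07 for CTSB, 0.04 for CTSH and 0.02 for CTSD. Without array 1 they were 0.08, 0.11 and 0.07, and without array 2 that of CTSH was 0.21. Median centring gave 0.20 for each of the 3 genes. With treated RNA read as Cy5 throughout, PSMB8 was at 0.23, CTSB at -0.18 and CTSH at -0.04.

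Interferon gamma is the main inducer of MHC class II genes. Of the genes of its signalling, 8 were tested, with 1 ratio above and 7 below 0 and a median of -0.04. The receptor chain gene IFNGR1 was at 0.16 on array 1 and at -0.16, -0.16 and -0.20 on arrays 2 to 4, with a fitted ratio of -0.09 (-0.26 to 0.08). Without array 1 that ratio was -0.17, without array 3 it was -0.0090, and its brightest probe alone gave -0.01. The only transcription gene measured, NFYB, which encodes a subunit of a factor that binds class II promoters, had a ratio of -0.04.

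The cells that could carry class II were checked through their markers. In RNA of whole cultures, fewer cells of a type and less RNA per cell cannot be told apart. Of 17 macrophage and dendritic cell markers 10 had probes and 7 were tested (CD14, AIF1, LYZ, C1QA, CD86, TYROBP and FCER1G), with ratios from -0.05 to 0.02 and a median of 0.0079. Their summed signal over the 10 genes was 674 to 1500 in control and 803 to 1573 in treated RNA, and CD80 and SPI1 were not well above background on any array. The B cell marker CD79A had a ratio of -0.02, and of the T cell markers CD3E and LCK were tested, at -0.0033 and 0.0044, while CD3G, CD4 and CD2 were not well above background. T cell markers summed to 190 to 303 in control and 212 to 294 in treated RNA. The endothelial markers PECAM1 and CDH5 had ratios of -0.0095 and 0.03. SELP, also endothelial, was at -0.23 (-0.38 to -0.07, unadjusted p = 0.0098, adjusted p = 0.9997, limma). An unadjusted p under 0.05 was found for 1.89% of named genes. The endothelial markers summed to 386 to 1504 in control and 372 to 1195 in treated RNA. The folliculostellate markers ANXA1 and SOX2 were at -0.10 and 0.10. Each of the 7 pituitary hormone genes of the labelled tissue was well above background on at least 1 array, with summed signals of 425484 to 544785 in control and 435871 to 541157 in treated RNA. Of the 6 hormone genes tested, 5 had ratios below 0, with a median of -0.08, among them LHB at -0.18 (-0.41 to 0.05) and PRL at -0.10 (-0.29 to 0.08), and none had an unadjusted p under 0.05 in limma. The share of any of these cells in the MHC signal was not tested.

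Likeness to other genes was measured over the 1909 named genes with values on 4 arrays, as the root mean square difference of the log2 ratios from those of the member. The nearest to CD74 were PGRMC1 (0.020), DMD (0.021) and TP53INP1 (0.021), and the nearest to SLA-DRA were TMEM57 (0.023), C1QTNF7 (0.024) and the provisional gene LOC396905 (0.029). Such closeness was common, with 52 genes within 0.05 of CD74 and 45 within 0.05 of SLA-DRA. These ratios of single arrays still hold the dye bias. The 3 genes nearest to CD74 were above 0 on arrays 1 and 3 and below 0 on arrays 2 and 4. Those nearest to SLA-DRA had the opposite signs. Whether the likeness is one of dye pattern or of response to adiponectin was not tested. B2M and SLA-1 had no value on all 4 arrays and were not compared.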

How the data were processed

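Per the file headers, the deposited scanner output comes from Agilent Feature Extraction 10.7.3.1 (array design 026440). Per the file headers, that software made the deposited intensity of each spot (linear, median of foreground and of local background), its flags, and the log10 ratio of red to green. In the deposited series matrix each probe has a log2 value, and 99.9% of these values lay within 0.01 of the log2 ratio of the scanner's processed signals, after arrays 2 and 4 were turned in sign. Its column medians were -0.04, 0.08, 0.04 and -0.05, so it was not centred. Intensities were corrected with normexp (offset 50) and normalized by loess within each array, control spots at weight 0. Spots flagged for uneven background (939 to 1350 of 43803 per array) and outlier spots (29 to 45) were left out, and no spot was saturated. The first choice was carried over from earlier results of these data. Where the flagged spots were kept, normexp and loess were also fitted with them, so values of other spots changed too.

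limma 3.58.1 in R 4.3.3 fitted the red over green ratio of each probe on dye and treatment (coded +1 for treated RNA in Cy5, -1 for Cy3), two-sided, and p-values were adjusted by Benjamini-Hochberg across every row of the fit. A gene is the mean of its tested probes. Intervals are 95% intervals of that model. The scripts were tested on simulated data. Treated and control RNA are paired by sharing an array, and all 4 arrays lay on 1 slide. The number of arrays limits the precision.

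Members and gene lists were chosen with earlier results of these data known. Genes named beside the members were, per direction, the 3 of the antigen presentation list with the smallest p, the members' 3 nearest genes by likeness, and list genes given as examples after their values were seen. Results of some listed genes are not reported here. Alternatives covered background, normalization, filter, probe choice, class membership, channel assignment and each array left out. Symbols come from RefSeq (Sscrofa11.1), matching 5578 of 43603 probes. Its coordinates are not printed, as the files' build is not given in the sources used here. Probe sequences were not used here.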

Additional observations from a re-analysis of the deposited data

Results flagged for a closer look

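IFNGR1 had 1 array apart from the others, at 0.16 on array 1 against -0.20 to -0.16 on arrays 2 to 4. Its fitted ratio of -0.09 was -0.17 without array 1 and -0.0090 without array 3. The check was made on 46 sets of 4 values, of which chance alone marks about 1 in 20 (2.3), and 1 was marked. No value of an MHC gene with 4 values was marked. B2M, with values on 3 arrays, and SLA-1, with no value, were outside this check.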

How the results depend on the processing

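The count of member probes past the threshold was 0 under every alternative run except 1. With treated RNA read as Cy5 on every array, 1 member probe passed (A_72_P721473 of SLA-DQA1, -0.26, adjusted p = 0.0308), among 2331 of all tested probes (9%). That reading turned SLA-DMB (-0.14), SLA-DQA1 (-0.064), SLA-DRA (-0.053), CTSB (-0.18), CTSH (-0.040), IFNGR1 (0.088) and PSMB8 (0.23), and put class II at -0.033. The count of member genes past it was 0 under every alternative run, while 1822 of all genes and unnamed probes passed under that reading. B2M turned to 0.026 with spots of uneven background kept, 0.0081 with the scanner's log ratio and with the series matrix, and 0.072 with median centring, which also put class I at 0.072. B2M minus class II was 0.011 with those spots kept, 0.015 with median centring and -0.0066 with SLA-3, SLA-5, SLA-6, SLA-7 and SLA-8 added. Class II was at 0.089 and SLA-DQB1 at -0.021 with the scanner's log ratio and the series matrix. CD74 turned to -0.0066 with the strict filter and with the brightest probe, SLA-DQA1 to -0.0077 with the brightest probe and SLA-DMB to -0.0024 with no filter. Each fit with 1 array left out leaves 1 array alone in 1 dye orientation, so its counts over all probes and genes are not given. Leaving out 1 array at a time put class I from -0.065 to -0.055, class II from 0.025 to 0.036 and their difference from -0.093 to -0.078. SLA-DMA then ran from -0.067 to 0.051, SLA-DQB1 from -0.0070 to 0.020 and SLA-DRA from -0.018 to 0.029. The causes were not tested. Class I of MHC-encoded members alone could not be computed, as SLA-1 had no probe, and class I has no value without array 1. With an offset of 0 in place of 50, member probes ran from -0.14 to 0.24 and 0 passed the threshold, as did 0 of all tested probes. Dim probes are the least bounded. They include those of SLA-DMB, one of CD74 and several of SLA-DRA. Others are A_72_P721473 and A_72_P720353 of SLA-DQA1, A_72_P585101 of SLA-DQB1 and A_72_P025111 of SLA-DMA, with lowest control signals of 22.2, 28.4, 25.5 and 34.9.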
